A study of Mus musculus with 4 samples.

Results

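Interferon-induced GTPases are large GTP-binding proteins of cell-autonomous immunity, and 8 of their genes were followed here in the bone marrow of *Tet2* KO mice and of WT mice: *Iigp1*, *Irgm1*, *Irgm2*, *Igtp*, *Ifi47*, *Gbp2*, *Gbp3* and *Gbp7*. All 8 were found among the 18695 genes of the deposited UMI counts (a UMI, unique molecular identifier, marks a captured RNA molecule). They were chosen with their levels in early progenitor cells of these same libraries known, so their ratios between genotypes are given as a description, with no test.

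Type I interferons act on promoters mainly through the interferon-stimulated response element (ISRE), and interferon gamma acts through the gamma-activated site (GAS). Both pathways induce the immunity-related GTPases (IRGs) and the guanylate-binding proteins (GBPs), which load onto the vacuoles of intracellular bacteria and protozoa and break them open. Among the IRGs, the effector *Iigp1* attacks the vacuole, and the regulators *Irgm1*, *Irgm2* and *Igtp* keep effectors off the membranes of the cell itself. In hematopoietic stem cells, *Irgm1* is also known for restraining the response to interferon gamma.

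The 4 libraries came from 2 mice, with 1 library for each genotype and sort. WT mice were *Tet2* fl/fl littermates without Cre, and *Tet2* KO mice were *Tet2* fl/fl with Mx1-Cre, both 8 to 12 weeks old, with males and females used in the study. All received pI:pC, in 4 doses of 12.5 ug per g, a double-stranded RNA analog that induces type I interferon and through it the Mx1 promoter that drives Cre. Both genotypes therefore met an interferon inducer, and the time from the last dose to the harvest was not stated in the methods or the labels. The Lin-/CD11b+ sort took lineage-negative progenitors together with CD11b+ cells, and the GMP sort took Lin- cKit+ Sca1- CD34+ CD16/32+ cells. With no replicates, genotype cannot be told apart from mouse or preparation, and every interval below is a 95% interval of counting error only.

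The libraries held 1258 to 3068 cells each, 8969 in all, with medians of 10417 to 18713 UMIs per cell and totals of 22681380 to 42561110 UMIs. *Tet2* itself was at 13.02 to 20.7 CPM (UMIs of a gene per 1000000 UMIs of the library or type), higher in the *Tet2* KO library of each sort, and since these are 3′ UMIs that need not come from the deleted part, this does not check the genotype. In the Lin-/CD11b+ sort, the granulocytic and monocytic progenitor-like cells held the plasma cell gene *Igkc* at 366 CPM in WT and 318 CPM in *Tet2* KO, against 0.431 and 0.243 CPM in the GMP sort, so *Igkc* UMIs were found outside plasma cells in the Lin-/CD11b+ sort, and whether they came as free RNA or with doublets was not tested. There were 37 barcodes found in 2 or more libraries, and without those cells the log2 ratio of the summed GTPase level, *Tet2* KO over WT, was 0.79 in stem-like cells and 0.73 in other early progenitors of the Lin-/CD11b+ sort, against 0.78 and 0.75 with them.

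Cells were assigned to types by scores of marker genes, so the type names are rebuilt here and may differ from those of the study. Early progenitor cells with a UMI of *Hlf* or *Procr*, both known from stem cells, are called stem-like, and the rest of the early cells are called other early progenitors. The Lin-/CD11b+ sort held 78 stem-like cells in WT (4.05% of 1924) and 192 in *Tet2* KO (6.26% of 3068), and 165 and 348 other early progenitors. Of all 1057 early cells, 135 lay near the limit to another type. Summed early progenitor markers stood at 1222 CPM in WT and 1245 CPM in *Tet2* KO stem-like cells, and at 861 and 891 CPM in other early progenitors. The same markers assigned the cells to the early type, so near-equal sums are set in part by that assignment. Summed primary granule markers, which mark the GMP stage, were lower in the *Tet2* KO, at 3494 against 4772 CPM in stem-like cells and 5008 against 5986 CPM in other early progenitors.

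Promoters of 6 of the GTPases hold the letters of an element through which interferons act, and windows around these are shown because the genes described below share them in part. RefSeq promoters (GRCm38.p6, 250 bases before to 50 after the start) were at hand for 7 of the 8 genes, with a second promoter for *Gbp3*, 8 promoters in all. The ISRE core was searched as GAAA, any 2 bases and GAAA again, on both strands, and the GAS core as TTCNNNGAA, which reads the same on both strands. In the 30-base windows, written in the orientation of the gene, capitals mark the matches.
*Irgm1*, chr11:48871428-48871457, minus strand: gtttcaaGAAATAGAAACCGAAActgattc
*Irgm2*, chr11:58214897-58214926, plus strand: gccatTTCCAGGAActGAAACTGAAAgctg
*Igtp*, chr11:58199506-58199535, plus strand: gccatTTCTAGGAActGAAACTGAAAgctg
*Gbp2*, chr3:142620594-142620623, plus strand: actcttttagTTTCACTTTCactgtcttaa
*Gbp3*, chr3:142559992-142560021, plus strand: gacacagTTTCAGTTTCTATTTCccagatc
*Gbp7*, chr3:142530273-142530302, plus strand: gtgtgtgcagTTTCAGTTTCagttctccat

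The ISRE core was found in 6 of the 8 GTPase promoters (75%) and in 1131 of all 32851 promoters (3.44%). The GAS core was found in 3 of the 8, against 8.30% of all promoters, and *Irgm2*, *Igtp* and *Gbp7* held both cores, as did 0.454% of all promoters. The windows of *Irgm2* and *Igtp*, neighbouring genes on chromosome 11, were equal at 29 of 30 bases, with the GAS core just ahead of the ISRE core. *Irgm1* and *Gbp3* each held 2 overlapping ISRE matches, the nearest starting 24 and 39 bases before the start that the promoter was taken from, which for *Gbp3* lies 28 bases inside the gene as given below. The promoter of *Ifi47* and the second one of *Gbp3* held neither core, which says only that these letters are not in those windows. A match is a description of the sequence and was not tested as a binding site.

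The genes lie on chromosomes 3, 11 and 18. *Irgm1* (chr11:48865245-48871420) and *Ifi47* (chr11:49076587-49096987) are near each other on chromosome 11, and farther along it are *Igtp* (chr11:58199556-58207592) and *Irgm2* (chr11:58214977-58222783). *Gbp7* (chr3:142530336-142550151), *Gbp3* (chr3:142560016-142573213) and *Gbp2* (chr3:142620663-142638008) form a cluster on chromosome 3, and *Iigp1* is on chromosome 18 (chr18:60373616-60392634). In the annotation at hand, which may not be that of the counts, *Irgm2* and *Igtp* share 162 exonic bases (4.39% and 8.01% of their exons), *Gbp7* shares 637 with *Gm43802* (11.3%) and *Ifi47* shares 111 with *Olfr56* (4.49%), so counts of these pairs could be split in an uncertain way. The IRG and GBP families also hold near-identical copies, and how reads shared with them were counted was not stated in the methods or the labels.

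In stem-like cells of the Lin-/CD11b+ sort, all 8 GTPases were higher in *Tet2* KO than in WT, but the sizes ranged widely. The 3 genes at 1.5-fold or more, among the 7 with at least 20 UMIs in both libraries together, were the effector *Iigp1*, the regulator *Igtp* and *Gbp2*. By this rule 11.1% of all 7794 genes tested were higher in the *Tet2* KO, and nothing is read from the comparison, since the members were chosen on it. *Irgm1* and *Gbp3* had the smallest ratios of the 8, and the intervals of these ratios included 0 on the log2 scale.

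*Iigp1*, the effector, had 1 UMI in the 78 WT stem-like cells (1.21 CPM) and 49 UMIs in 29 of the 192 *Tet2* KO cells (26.3 CPM, 19.5 to 34.8). The *Tet2* KO level was 21.9-fold the WT level (3.74 to 881), a ratio that rests on that single WT molecule. No *Tet2* KO cell held more than 5 of the UMIs, and the 3 highest cells held 24.5% of them. UMIs of *Iigp1* were thus rare in WT stem-like cells and spread over 29 *Tet2* KO cells, and 1 UMI leaves the WT level poorly known.

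The 3 regulators had log2 ratios of different size, with intervals of the ratios that overlapped. *Irgm1* was at 33.7 CPM in WT (22.4 to 48.8) and 36.6 CPM in *Tet2* KO (28.4 to 46.4), a log2 ratio of 0.12 (-0.54 to 0.81). *Igtp* was at 12.1 CPM in WT (5.78 to 22.2) and 37.6 CPM in *Tet2* KO (29.3 to 47.6), a log2 ratio of 1.64 (0.68 to 2.76). The WT interval of *Irgm1* held that of *Tet2* KO, and the intervals of *Igtp* did not overlap. *Irgm2* had 1 UMI in WT (1.21 CPM) and 14 in *Tet2* KO (7.53 CPM), too few for the limit of 20 UMIs, and the interval of its log2 ratio of 2.64 reached from -0.07 to 8.05.

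*Ifi47*, a further member of the IRG family, had the highest level of the 8 in both genotypes. It was at 60.3 CPM in WT (44.7 to 79.4) and 88.2 CPM in *Tet2* KO (75.2 to 103), a log2 ratio of 0.55 (0.08 to 1.04) that lies below 1.5-fold. Its 2 intervals overlapped, although the interval of the ratio lay above 0.

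Among the GBPs, *Gbp2*, a GBP that coats vacuoles and bacteria, had the largest ratio. It was at 7.23 CPM in WT (2.65 to 15.7) and 26.9 CPM in *Tet2* KO (19.95 to 35.4), a log2 ratio of 1.89 (0.67 to 3.41). *Gbp3* was at 27.7 and 32.3 CPM, a log2 ratio of 0.22 (-0.50 to 0.98). *Gbp7* was at 28.9 and 41.4 CPM, with 0.52 (-0.16 to 1.24). The WT level of *Gbp2* was the lowest of the 3, and the *Tet2* KO level came close to that of *Gbp3*.

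Summed over the 8 genes, the level was 172 CPM in WT (145 to 203) and 297 CPM in *Tet2* KO (273 to 323), a log2 ratio of 0.78 (0.52 to 1.06). The median log2 ratio of the 7 members tested was 0.55, beside 0.02 over all genes tested. In these cells the cell-type markers moved as follows. *Elane*, a primary granule gene, was at 349 CPM in *Tet2* KO and 875 CPM in WT, *Mpo* at 993 and 1056 CPM, and *Kit* at 108 and 71.1 CPM. Summed T, NK and B markers were lower in the *Tet2* KO (317 against 472 CPM), most of them UMIs of *Nkg7*, with 1 UMI of *Cd3e* in *Tet2* KO and 0 in WT. The macrophage markers together had 3 and 4 UMIs, and *Siglech*, of plasmacytoid DCs, had 1 UMI in each genotype. Summed plasmacytoid DC markers were at 28.9 CPM in WT and 36.0 CPM in *Tet2* KO (0.32, -0.38 to 1.05) and summed monocyte markers at 154 and 175 CPM (0.18, -0.12 to 0.49), with the monocyte marker *Fn1* at 0 and 11 UMIs. The part of these markers in the ratios was not tested. Without the early cells whose primary granule score was above -0.3, the log2 ratio of the sum was 0.91 (0.61 to 1.21). Without cells that held a UMI of *Siglech*, *Cd209a*, *Xcr1*, *Clec9a*, *Cd3e*, *Cd79a* or *Ms4a1*, markers of DCs, T cells or B cells, it was 0.80.

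In other early progenitors of the same sort, all 8 GTPases were again higher in *Tet2* KO. The 5 at 1.5-fold or more of the 8 tested were *Iigp1*, *Irgm1*, *Irgm2*, *Igtp* and *Gbp2*, where 9.97% of all genes tested were as much higher. *Iigp1* had 3 UMIs in WT (1.43 CPM) and 48 in *Tet2* KO (13.4 CPM), a log2 ratio of 3.23 (1.59 to 5.55). *Igtp* was at 8.12 CPM in WT and 31.8 CPM in *Tet2* KO, with 1.97 (1.23 to 2.80). *Gbp2* was at 5.26 and 18.7 CPM, with 1.83 (0.90 to 2.90). *Iigp1*, *Igtp* and *Gbp2* were thus over 3-fold higher in both early groups. So was *Irgm2*, here with 2 UMIs in WT and 19 in *Tet2* KO and a log2 ratio of 2.47 (0.42 to 5.62). In stem-like cells the log2 ratio of *Irgm2* was 2.64 (-0.07 to 8.05), from too few UMIs to count as tested. *Irgm1* was at 18.6 and 28.8 CPM, with 0.63 (0.08 to 1.20), and *Gbp7* at 21.5 and 31.0 CPM, with 0.53 (0.02 to 1.06). The intervals of *Ifi47* (54.0 and 67.3 CPM, log2 ratio 0.32, -0.01 to 0.65) and *Gbp3* (21.98 and 25.1 CPM, 0.19, -0.33 to 0.74) included 0. The sum was at 132 CPM in WT and 222 CPM in *Tet2* KO, a log2 ratio of 0.75 (0.55 to 0.95), and the median of the 8 was 1.23 beside 0.02 over all genes.

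**Figure D1:**
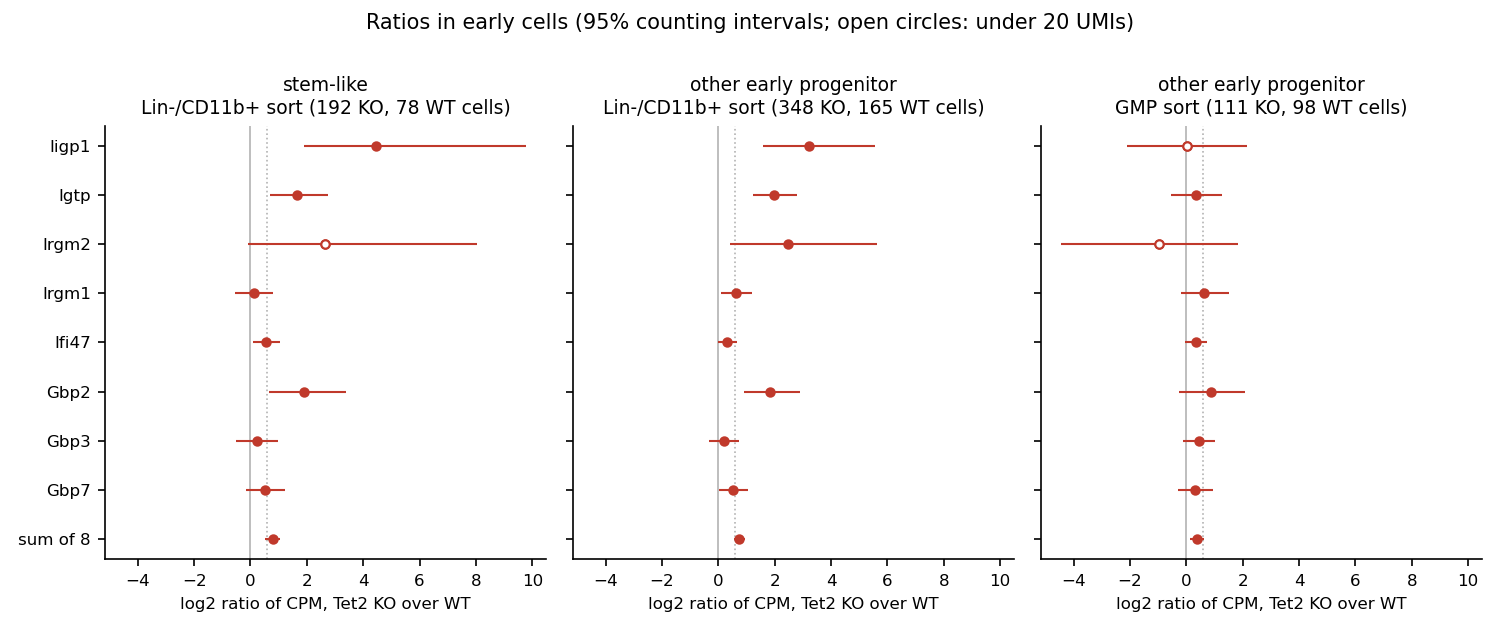
Log2 ratios of CPM, *Tet2* KO over WT, of the 8 GTPases and their sum in stem-like cells and other early progenitors of the Lin-/CD11b+ sort and other early progenitors of the GMP sort, with 95% counting intervals, a solid line at 0 and a dotted line at 1.5-fold. *Iigp1*, *Igtp* and *Gbp2* lie to the right of both lines in the Lin-/CD11b+ sort (4.45, 1.64 and 1.89 in stem-like cells), and every single-gene interval in the GMP sort includes 0.

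The other early progenitors of the GMP sort, 98 cells in WT and 111 in *Tet2* KO, are Sca1- by the gate. Of the 6 GTPases tested there, 2 (*Irgm1* and *Gbp2*) were at 1.5-fold or more, beside 6.25% of all genes. *Iigp1* was at 2.95 CPM in WT and 3.01 CPM in *Tet2* KO, 5 UMIs each, a log2 ratio of 0.03 (-2.09 to 2.15). *Igtp* was at 11.8 and 15.1 CPM, with 0.35 (-0.56 to 1.28), and *Gbp2* at 6.50 and 12.1 CPM, with 0.89 (-0.24 to 2.10). The interval of *Iigp1* in this sort reaches to 2.15 and that in the Lin-/CD11b+ sort begins at 1.59, so they overlap, and the difference between the sorts was not tested. The sum was at 145 CPM in WT and 191 CPM in *Tet2* KO, a log2 ratio of 0.39 (0.15 to 0.64). The stem-like cells of this sort were few, 40 in WT and 25 in *Tet2* KO, with a summed level of 156 and 182 CPM and a log2 ratio of 0.23 (-0.23 to 0.67). *Iigp1* had 0 UMIs in the 40 WT cells, which allows up to 7.50% of cells with a UMI (3 cells of 40), and 2 UMIs in the 25 *Tet2* KO cells.

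The share of cells with a UMI of a GTPase was compared after each cell was thinned to 5000 UMIs, since the medians of stem-like cells were 9789 UMIs in WT and 8321 in *Tet2* KO. Any of the 8 was found in 61.5% of WT stem-like cells (49.8 to 72.3) and 72.9% of *Tet2* KO stem-like cells (66.0 to 79.1), from 84.6% and 89.6% before thinning. The other early progenitors had 47.3% and 58.9%, from 73.9% and 81.3%. No cell type is known to lack all 8 genes, and the type with the lowest summed level, plasma cell-like, had 13.5% in WT and 19.5% in *Tet2* KO when thinned, with medians of 14578 and 12644 UMIs. The early shares lay above these. That type was picked for its low level of the same 8 genes, so this order was largely set by the choice.

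*Iigp1* was found in 0 of 78 thinned WT stem-like cells, which allows up to 3.85% of cells with a UMI at that depth, and in 20 of 192 *Tet2* KO cells (10.4%, 6.48 to 15.6). Such a limit covers cells in which a UMI was found and not cells that express the gene. Before thinning it was found in 1 WT cell (1.28%) and 29 *Tet2* KO cells (15.1%). In other early progenitors the thinned shares were 1.21% in WT (0.147 to 4.31) and 5.75% in *Tet2* KO (3.55 to 8.74), and in plasma cell-like cells 0 of 171 and 1 of 190. *Ifi47* went from 21.8% (13.2 to 32.6) to 37.5% (30.6 to 44.8) of stem-like cells and *Gbp2* from 3.85% (0.80 to 10.8) to 15.6% (10.8 to 21.5), while *Irgm1* was found in 19.2% and 17.7% and *Gbp7* in 21.8% and 21.4%. The shares of *Irgm1* and *Gbp7* thus lay within each other's intervals.

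The number of different GTPases found per cell was also counted. In thinned stem-like cells, 3 or more of the 8 were found in 4 of 78 WT cells (5.13%, 1.41 to 12.6) and in 35 of 192 *Tet2* KO cells (18.2%, 13.04 to 24.4). Among other early progenitors these were 3 of 165 (1.82%, 0.377 to 5.22) and 31 of 348 (8.91%, 6.13 to 12.4). Cells with 4 or more numbered 0 in WT and 16 in *Tet2* KO stem-like cells. The share with none of the 8 was 38.5% in WT (27.7 to 50.2) and 27.1% in *Tet2* KO (20.9 to 34.0). The intervals overlapped for cells with none and narrowly missed each other for cells with 3 or more (12.6 and 13.04). They cover counting error of cells in 1 library per genotype, so neither is a test of genotype. The tenth of stem-like cells with most GTPase UMIs held 25.9% of them in WT and 31.7% in *Tet2* KO, and the highest *Tet2* KO cell held 23. In the GMP sort, 3 or more were found in 2 of 98 WT (2.04%) and 4 of 111 *Tet2* KO (3.60%) other early progenitors.

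**Figure D2:**
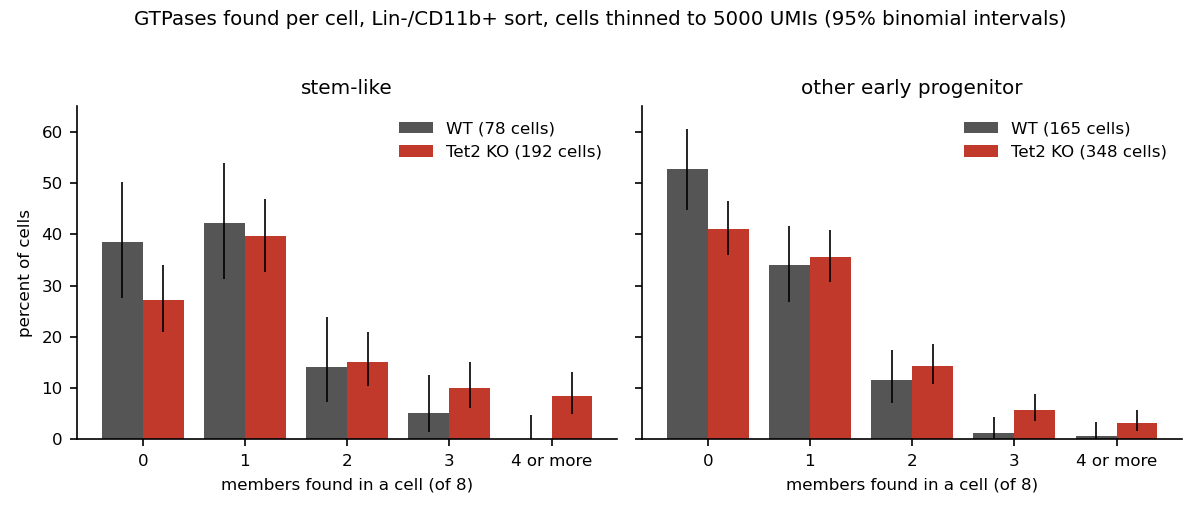
Percent of stem-like cells and of other early progenitors, Lin-/CD11b+ sort, in which 0, 1, 2, 3 or at least 4 of the 8 GTPases were found after thinning to 5000 UMIs, for WT (grey) and *Tet2* KO (red), with 95% binomial intervals. The bars for 3 and for 4 or more are taller in *Tet2* KO in both groups, together 18.2% against 5.13% in stem-like cells.

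Early cells of the *Tet2* KO Lin-/CD11b+ library with an *Iigp1* UMI (63 cells) were set against those without (477 cells) to describe what else they held. This split is by a measured gene within a library, so its values are a description. *Igtp* was at 115 CPM in *Iigp1*-positive and 24.4 CPM in *Iigp1*-negative cells, a log2 ratio of 2.24 (1.78 to 2.69). *Irgm1* was at 78.0 and 26.1 CPM, with 1.58 (1.05 to 2.09), and *Gbp7* at 76.2 and 29.7 CPM, with 1.36 (0.83 to 1.86). The other GTPases were also higher, with log2 ratios from 0.72 for *Gbp3* to 2.11 for *Irgm2*, and the interval of *Gbp2* (0.74, -0.05 to 1.46) included 0. *Irgm1* thus differed between these cells. Between the genotypes its log2 ratio was 0.12 (-0.54 to 0.81) in stem-like cells and 0.63 (0.08 to 1.20) in other early progenitors. These 2 intervals overlapped. The split pools both early groups, and *Irgm1* was higher in stem-like than in other early *Tet2* KO cells (36.6 and 28.8 CPM). The part of their mix in these ratios was not tested.

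Outside the 8, the MHC class II genes *Cd74* (322 and 93.3 CPM, 1.79, 1.53 to 2.04) and *H2-Aa* (195 and 74.1 CPM, 1.40, 1.07 to 1.71) and *Ly6a*, which encodes Sca-1 (183 and 50.3 CPM, 1.86, 1.51 to 2.20), were higher in cells with *Iigp1*. The granule genes *Mpo* (788 and 1444 CPM) and *Elane* (239 and 487 CPM) were lower, and *Kit* was at 93.9 and 93.7 CPM. The plasmacytoid DC marker *Siglech* and the DC marker *Cd209a* had 0 UMIs in the 63 cells. In the negative cells they were at 0.410 and 0.205 CPM, too low to tell these cells apart. *Cd74* and *H2-Aa* were themselves among the DC markers used to assign types. Of the same markers, *H2-Ab1* was at 292 and 144 CPM and *Flt3* at 46.1 and 44.3 CPM. The median depth was 7539 UMIs in positive and 9722 UMIs in negative cells, so the positive cells were the shallower ones. The part of the granule level in these ratios was not tested.

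*Iigp1*-negative *Tet2* KO early cells were also set against all 243 WT early cells. *Gbp2* was at 20.1 CPM in these and 5.82 CPM in WT, with 1.79 (1.04 to 2.63), and *Igtp* at 24.4 and 9.24 CPM, with 1.40 (0.79 to 2.06). *Irgm1* was at 26.1 and 22.9 CPM, with 0.18 (-0.25 to 0.63), and *Gbp3* at 25.8 and 23.6 CPM, with 0.13 (-0.30 to 0.58). *Cd74* was at 93.3 and 13.004 CPM. The higher levels of *Gbp2*, *Igtp* and *Cd74* in the *Tet2* KO were therefore also present in cells in which *Iigp1* was not found.

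**Figure D3:**
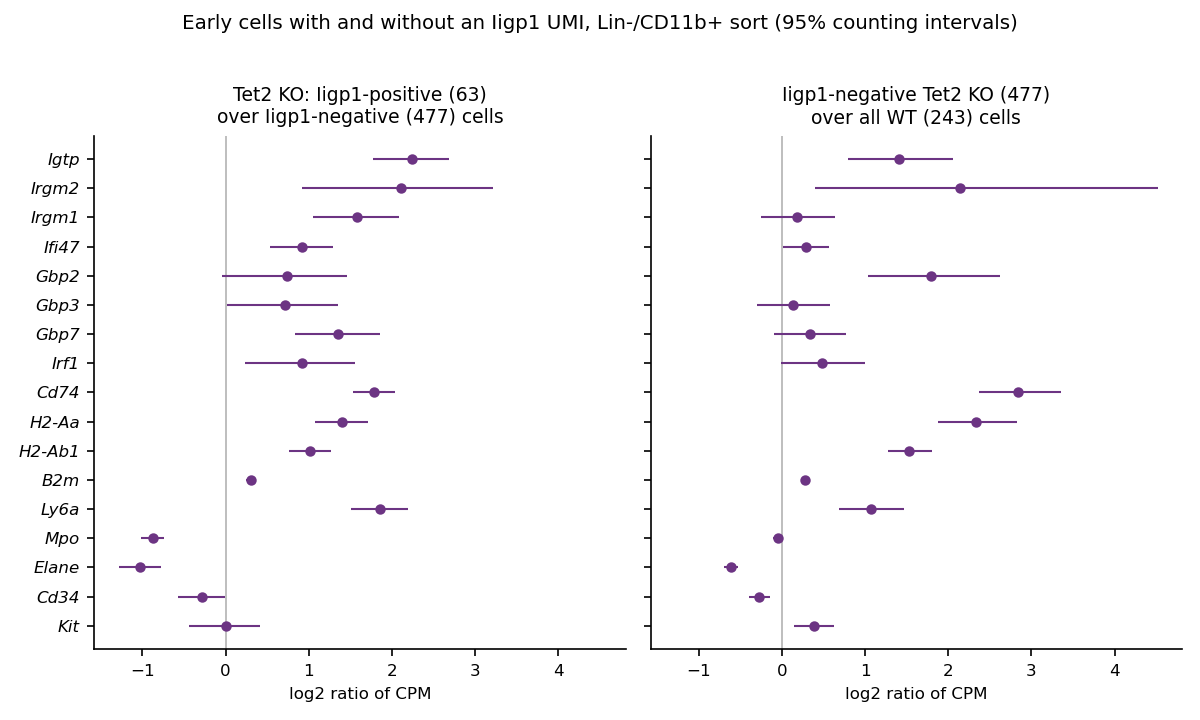
Log2 ratios of CPM with 95% counting intervals in early cells of the Lin-/CD11b+ sort, on the left *Tet2* KO cells with over those without an *Iigp1* UMI, on the right *Iigp1*-negative *Tet2* KO cells over all WT cells. *Irgm1* is at 1.58 on the left and 0.18 on the right, and *Gbp2* at 0.74 and 1.79, so the panels order the genes differently.

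Across the types of the Lin-/CD11b+ sort, the summed level was highest in stem-like cells of both genotypes. In WT the order was stem-like (172 CPM), basophil and mast-like (142), other early progenitors (132), T, NK and B-like (122), DC-like (108), plasmacytoid DC-like (105), granulocytic progenitor-like (91.5), monocyte-like (90.8), monocytic progenitor-like (82.6), neutrophil-like (43.2) and plasma cell-like (36.0). The intervals of neighbours in this order overlapped except those of monocytic progenitor-like and neutrophil-like cells. In *Tet2* KO the order was stem-like (297 CPM), T, NK and B-like (239), other early progenitors (222), DC-like (169.5), monocyte-like (150.2), granulocytic progenitor-like (120.0), plasmacytoid DC-like (118), basophil and mast-like (116), monocytic progenitor-like (99.5), neutrophil-like (72.2) and plasma cell-like (51.9). Here the stem-like interval did not overlap the next one, and there were further gaps after other early progenitors, monocyte-like and monocytic progenitor-like cells.

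The step from stem-like to monocytic progenitor-like cells differed among the genes. In WT, *Irgm1* had a log2 ratio of stem-like over monocytic progenitor-like of 1.87 (1.11 to 2.62), *Igtp* of 2.14 (0.74 to 3.51) and *Ifi47* of 1.38 (0.85 to 1.89). In *Tet2* KO, *Iigp1* had 4.97 (3.52 to 6.90), *Igtp* 4.03 (3.0996 to 5.09) and *Gbp2* 2.25 (1.54 to 2.98). The intervals of *Gbp3* included 0, with -0.19 (-0.90 to 0.46) in WT and 0.17 (-0.30 to 0.61) in *Tet2* KO. *Gbp7* had 1.27 (0.501 to 2.01) in WT and 0.99 (0.55 to 1.44) in *Tet2* KO. Against granulocytic progenitor-like cells of WT, *Irgm1* had 1.62 (0.86 to 2.36), *Gbp7* 1.22 (0.44 to 1.97) and *Ifi47* 0.57 (0.08 to 1.04), while the interval of *Igtp* included 0 (1.03, -0.22 to 2.18). *Gbp3* had 0.599 (-0.16 to 1.30) against these cells in WT and 0.59 (0.099 to 1.06) in *Tet2* KO. *Irgm1*, *Ifi47* and *Gbp7* thus had intervals above 0 against both progenitor types already in WT.

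**Figure D4:**
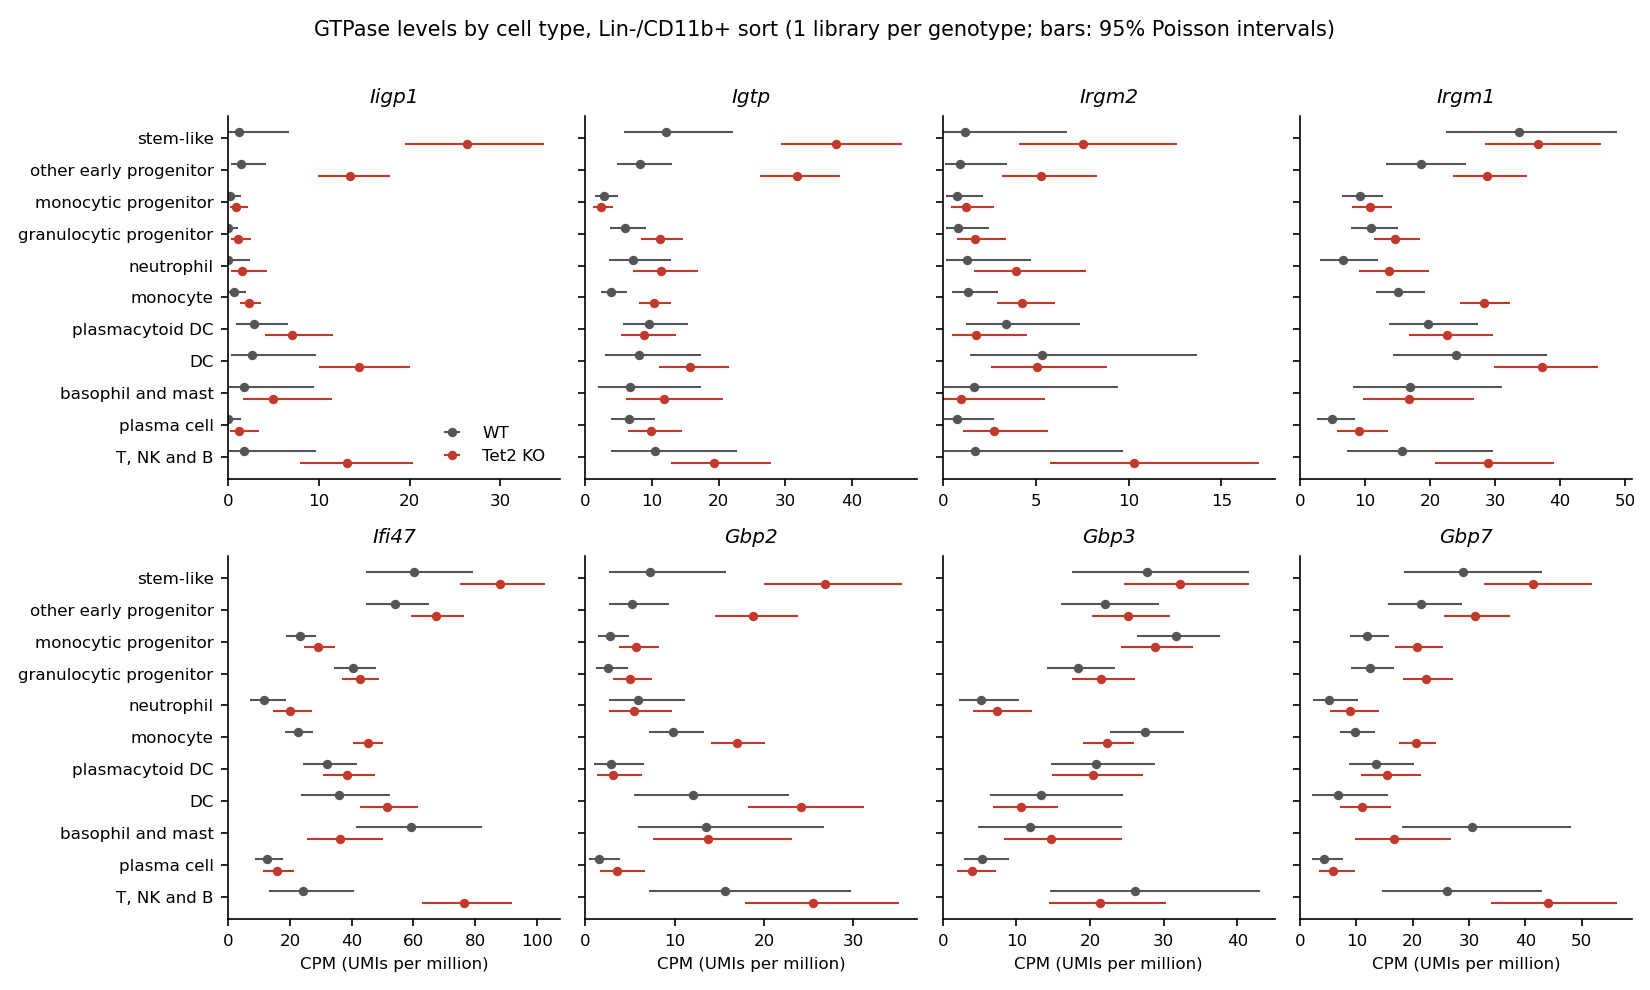
CPM of each of the 8 GTPases in the 11 cell types of the Lin-/CD11b+ sort for WT (grey) and *Tet2* KO (red), 1 library each, with 95% Poisson intervals, each panel with its own axis starting at 0. *Iigp1* reaches 26.3 CPM in *Tet2* KO stem-like cells and stays at or below 2.82 CPM in every WT type, while *Gbp3* lies at 27.5 CPM in WT and 22.3 CPM in *Tet2* KO monocyte-like cells.

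Outside the early cells, the widest set of higher GTPases was in monocyte-like cells of the Lin-/CD11b+ sort (448 WT and 734 *Tet2* KO cells). There 7 of 8 were at 1.5-fold or more, a larger set than in either early group, beside 8.81% of all genes. *Ifi47* was at 22.6 CPM in WT and 45.2 CPM in *Tet2* KO, a log2 ratio of 0.997 (0.67 to 1.34), and *Irgm1* at 15.1 and 28.3 CPM, with 0.91 (0.50 to 1.33). *Gbp3* was the exception, at 27.5 and 22.3 CPM, with -0.30 (-0.65 to 0.05). *Irgm1* thus had a larger ratio here than in stem-like cells, and *Iigp1* a smaller one, from 3 UMIs in WT to 17 in *Tet2* KO (1.72, -0.07 to 4.14), differences that were not tested. The sum was at 90.8 and 150.2 CPM, with 0.73 (0.56 to 0.89). DC markers also differed between the libraries in this type, *Cd74* at 33.4 and 195 CPM, *H2-Aa* at 9.61 and 47.6 CPM and *Cd209a* at 10.8 and 4.27 CPM. The part of the make-up of this type in the ratios was not tested.

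In T, NK and B-like cells (53 WT and 142 *Tet2* KO), 6 of 7 were at 1.5-fold or more, beside 19.8% of all genes. *Ifi47* was at 24.3 and 76.4 CPM, with 1.65 (0.84 to 2.57), and the sum at 122 and 239 CPM, with 0.97 (0.60 to 1.36). The make-up of this type differed between the libraries, with the T cell gene *Cd3e* at 24.3 CPM in WT and 61.2 CPM in *Tet2* KO and the B cell gene *Cd79a* at 583 and 379 CPM, and its part in the ratios was not tested. In DC-like cells 5 of 7 were at 1.5-fold or more, beside 12.4% of all genes, and *Iigp1* went from 2 UMIs (2.67 CPM) to 34 UMIs (14.4 CPM), with 2.43 (0.47 to 5.53).

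The remaining types had smaller sets. In the Lin-/CD11b+ sort these were 2 of 6 in monocytic progenitor-like cells (7.60% of all genes), 3 of 6 in granulocytic progenitor-like cells (9.31%) and 1 of 6 in plasmacytoid DC-like cells (7.55%). Neutrophil-like cells had 4 of 6, beside 33.4% of all genes, and plasma cell-like cells 2 of 5, beside 20.1%. In both, the scaling moved the ratios of all genes, by 0.34 to 0.37 in neutrophil-like and 0.22 to 0.25 in plasma cell-like cells on the log2 scale, so relative to other genes their GTPase ratios are smaller by these amounts. Basophil and mast-like cells had 0 of 5, beside 15.9%, and 2 of 5 were lower by as much, beside 10.1%, *Ifi47* (-0.70, -1.41 to 0.01) and *Gbp7* (-0.87, -1.91 to 0.17). The make-up of this type differed between the libraries, with *Cd74* at 306 CPM in WT and 50.2 CPM in *Tet2* KO. Its part in the ratios was not tested.

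In the GMP sort the types differed in the sum, which was near equal in monocytic progenitor-like cells and higher in *Tet2* KO basophil and mast-like cells. It was at 104 CPM in WT and 111 CPM in *Tet2* KO monocytic progenitor-like cells, with 0.09 (-0.02 to 0.21), where 2 of 7 were at 1.5-fold or more, beside 4.26% of all genes. *Igtp* was at 4.61 and 7.55 CPM there, with 0.71 (0.18 to 1.28), and *Gbp3* was lower in the *Tet2* KO, at 40.2 CPM in WT and 28.1 CPM in *Tet2* KO, with -0.51 (-0.72 to -0.30). Granulocytic progenitor-like cells had 3 of 8, beside 4.66%, with *Gbp2* at 2.87 and 5.21 CPM (0.86, 0.26 to 1.502) and *Iigp1* from 2 to 28 UMIs (2.71, 0.72 to 5.82). Basophil and mast-like cells had 4 of 6, beside 7.00%, and their sum was at 129 and 192 CPM, with 0.57 (0.30 to 0.84). *Iigp1*, with too few UMIs to count among the 6, had 0 UMIs in 108 WT cells and 18 UMIs (10.6 CPM) in 148 *Tet2* KO cells. That is 4.98-fold higher against a floor of 3 UMIs in the WT cells, and the counting interval of the ratio begins at 3.65-fold.

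The interferon genes around the GTPases were counted in the same early cells from lists of the pathway, and their medians are set beside that of all genes, 0.02. Of all genes tested, 11.1% were higher and 7.04% lower by 1.5-fold or more in stem-like cells, and 9.97% and 5.18% in other early progenitors. Of 18 other interferon-induced GTPases, 14 were in the counts and 2 to 4 had enough UMIs. *Gm4951*, an *Iigp1* relative, was at 4.82 CPM in WT and 17.7 CPM in *Tet2* KO stem-like cells, with 1.88 (0.39 to 3.84). In other early progenitors it went from 0 to 33 UMIs, 6.43-fold higher against a floor of 3 UMIs, and the interval of its log2 ratio begins at 2.31. *Tgtp2*, a further IRG, was at 7.23 and 11.3 CPM in stem-like cells, with 0.64 (-0.71 to 2.24). *Mx1*, whose promoter drives the Cre, had 0 UMIs in WT and 2 in *Tet2* KO stem-like cells, and 4 and 0 in other early progenitors.

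The signal transduction genes given here were mixed. *Irf1*, an interferon-induced transcription factor, was at 20.5 CPM in WT and 23.1 CPM in *Tet2* KO stem-like cells (0.17, -0.67 to 1.08) and at 15.3 and 26.8 CPM in other early progenitors (0.81, 0.22 to 1.44). *Irf8*, a factor of monocytic and DC development, was lower in stem-like cells, at 79.5 and 52.7 CPM (-0.59, -1.06 to -0.12). Of 7 receptors and kinases, 2 were higher in each group (*Jak2* and *Tyk2* in stem-like cells, *Jak2* and *Ifnar1* in other early progenitors), each with an interval that included 0, and *Ifngr2*, a chain of the interferon gamma receptor, was lower in stem-like cells at 21.7 and 9.14 CPM (-1.25, -2.29 to -0.21). Of the inhibitors tested, 2 were higher and 1 was lower in each group. *Isg15*, a ubiquitin-like modifier, was at 20.5 and 40.3 CPM in stem-like cells (0.98, 0.20 to 1.83), and *Socs3*, an inhibitor of cytokine signalling, at 18.1 and 8.07 CPM (-1.16, -2.30 to -0.03).

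Of the type I response genes, 8 of 19 tested were higher and 1 was lower in stem-like cells (median 0.39), and 9 of 23 were higher in other early progenitors (median 0.40). The lower one was *Ifih1*, or MDA5, a sensor of double-stranded RNA, at 14.5 and 7.53 CPM (-0.94, -2.16 to 0.30). *Rsad2*, or viperin, was at 2.41 and 10.8 CPM in stem-like cells (2.16, 0.12 to 5.30), and *Zbp1*, a sensor of nucleic acid, at 7.23 and 19.9 CPM (1.46, 0.20 to 2.996). *Ly6a* was at 57.8 and 112 CPM in stem-like cells (0.95, 0.49 to 1.44) and at 10.5 and 39.1 CPM in other early progenitors (1.90, 1.24 to 2.62). In the Sca1- GMP sort *Ly6a* was at 6.50 CPM in WT and 3.01 CPM in *Tet2* KO other early progenitors. *Oasl2*, an OAS-like protein, was at 2.87 and 12.3 CPM in other early progenitors (2.10, 0.86 to 3.62).

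Of the interferon gamma response genes, 4 of 21 tested were higher in stem-like cells (median 0.19) and 5 of 21 in other early progenitors (median 0.29), and none of those tested was lower at that size. *Cxcl10*, below the limit of 20 UMIs, had 10 UMIs in WT and 0 in *Tet2* KO stem-like cells, and 1 and 6 in other early progenitors. The MHC class I gene *H2-Q7* was at 170 and 329 CPM in stem-like cells (0.95, 0.69 to 1.23), and *Nlrc5*, a transactivator of MHC class I, at 6.03 and 14.5 CPM (1.27, -0.13 to 3.002). The MHC class II list had the largest median among the lists of the pathway, 1.42 in stem-like cells and 0.96 in other early progenitors, with 5 of 8 genes higher in each. *Cd74*, the invariant chain, was at 22.9 CPM in WT and 237 CPM in *Tet2* KO stem-like cells (3.37, 2.71 to 4.12), and *H2-Aa* at 25.3 and 160.2 CPM (2.66, 2.02 to 3.38). In granulocytic progenitor-like cells *H2-Aa* was at 2.25 and 9.03 CPM and *Cd74* at 5.63 and 20.4 CPM, and DC-like cells, which these genes mark, were 4.37% of WT and 8.38% of *Tet2* KO cells. The stem-like levels thus lay above those of the granulocytic progenitor-like cells of the same libraries, but not above those of all other types. In neutrophil-like cells *Cd74* was at 256 CPM in WT and 358 CPM in *Tet2* KO, and *H2-Aa* at 52.3 and 104 CPM. In monocyte-like cells *Cd74* was at 33.4 CPM in WT and 195 CPM in *Tet2* KO.

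Genes of autophagy-like loading, which bring IRGs and GBPs to membranes, had medians of -0.11 and -0.01 with 2 of 13 and 1 of 14 higher, *Atg16l1* (0.97, -0.46 to 2.73) and *Ulk1* (0.79, -0.36 to 2.12) in stem-like cells and *Map1lc3a* (1.59, 0.31 to 3.15) in other early progenitors. The lists were chosen with results of these data known, and none of these counts is a test.

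**Figure D5:**
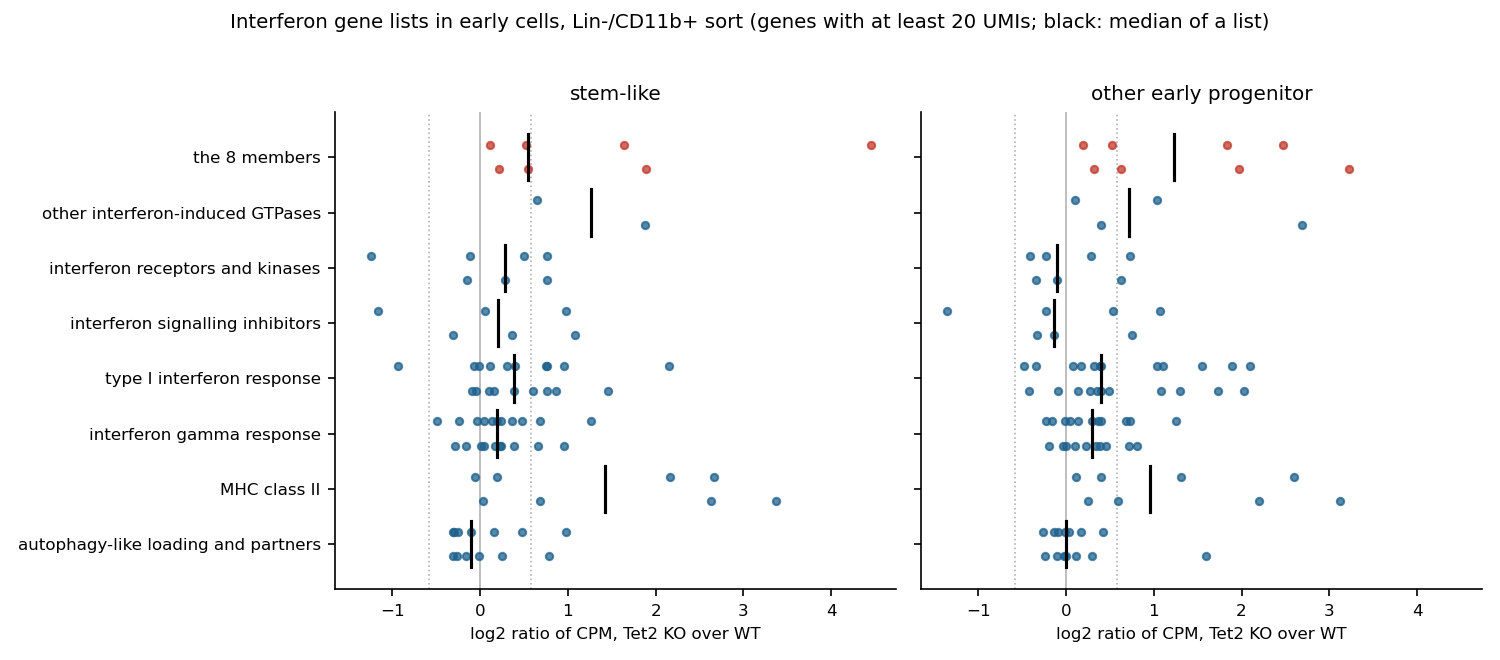
Log2 ratios of CPM, *Tet2* KO over WT, of the 8 GTPases (red) and of genes of 7 interferon-related lists (blue) in stem-like cells and other early progenitors of the Lin-/CD11b+ sort, 1 point per gene with at least 20 UMIs, black bars at the medians and dotted lines at 1.5-fold either way. Among the blue lists the median of MHC class II lies farthest right (1.42 and 0.96), and autophagy-like loading is centred near 0 (-0.11 and -0.01).

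Transcripts of interferons themselves were rare. *Ifng*, interferon gamma, had 18 UMIs in 9 of 3068 cells of the *Tet2* KO library from the Lin-/CD11b+ sort, 11 of them in the 142 T, NK and B-like cells, and 2 UMIs in 2 of 1924 WT cells, both T, NK and B-like. It had 0 UMIs in the 540 *Tet2* KO and 243 WT early cells of that sort and in both GMP libraries. *Ifnb1*, *Ifna13* and *Ifnk* had at most 1 UMI in a library, which is too few to compare. *Il12a*, a subunit of interleukin 12, which drives production of interferon gamma, was at 43.4 CPM in WT and 14.5 CPM in *Tet2* KO stem-like cells (-1.58, -2.36 to -0.82).

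Over the 31 groups of library and type with at least 50 cells, the 8 genes did not vary together to the same degree. On the log2(CPM + 10) scale *Iigp1* and *Igtp* had the highest Pearson correlation, 0.85, and *Gbp7* and *Ifi47* had 0.78. *Gbp3* stood apart, with correlations from -0.05 with *Irgm2* to 0.62 with *Gbp7*. Among 11178 genes, those whose pattern was most like that of the summed GTPases were *Stat5a* (0.86), *Chd4* (0.85), *Ube3a* (0.85), *Pip5k1a* (0.85), *Trp53bp1* (0.84), *H2-K1* (0.84), *B9d2* (0.83), *Prpf4b* (0.83), *2900097C17Rik* (0.83) and *Slc25a1* (0.82). The groups share libraries and depth, so these correlations are a description only.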

How the data were processed

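The authors counted UMIs per gene and cell and deposited raw counts for the cells of all 4 libraries beside a table of cells and their libraries. Processing notes of the submitters name Cell Ranger 3.1.0, Seurat and mm10. The kit is named as v2 in the methods and as a later version in the design text. Cells with fewer than 200 genes, fewer than 5000 UMIs or 5% or more of mitochondrial counts were filtered out per the methods, but 44 to 180 cells per library lie above the last limit and were kept here. No column of per-sample values was left out.

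Cells were scaled to 10000 UMIs, marker genes were log-transformed and averaged into standardized scores, and a cell took the type with the highest score. Early cells with at least 1 UMI of *Hlf* or *Procr* were stem-like. Cells led by a primary granule, monocytic or granulocytic score counted as progenitors above a primary granule score of -0.3, a limit set after seeing the data, and otherwise as neutrophils, monocytes or, with a *Siglech* UMI, plasmacytoid DCs. Cells with a gap under 0.2 to the next score count as near the limit. Doublets were not called.

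UMIs were summed per library and type and scaled to CPM, that is, to 1000000 UMIs. Levels carry exact Poisson intervals, shares exact Clopper-Pearson binomial intervals and ratios exact conditional binomial intervals, all at 95%. UMIs mark molecules, and the intervals cover counting error only. Ratios were taken where each library held 50 cells or more of a type. Genes with at least 20 UMIs in both libraries together counted as tested, and 1.5-fold as higher or lower. With 1 library per group no p-value was computed. A gene with 0 UMIs was set to a floor of 3 UMIs, and a share of 0 was given as a limit of 3 cells of the total. Shares were also taken from cells thinned to 5000 UMIs (seed 1).

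The 8 members, the lists and the rules were chosen with earlier results of these data known. All members are named, with up to 4 genes per list with the largest absolute ratio among those tested, genes whose absence a statement needs, and the 10 genes with the highest Pearson correlation with the summed level among genes with at least 100 UMIs. Some results, among them the counts of interferon transcription factors, are not reported here. Genes named from other lists, in the split by *Iigp1* and as markers, were chosen after their values were seen.

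Alternatives were TMM factors (edgeR 4.0.16) and DESeq2 1.42.0 size factors in R 4.3.3, means over cells, Leiden clusters (scanpy 1.11.5, leidenalg 0.10.2; 2000 variable genes, 30 components, 30 neighbours, resolution 0.8, without the interferon genes), a gate at 2 UMIs, cells left out by mitochondrial share, by the 5% with most UMIs or as the 3 with most GTPase UMIs, the sum without *Ifi47*, the GMP sort, no filter and an offset of 1 CPM. Leaving out cells near the limit, above the granule limit, with shared barcodes or with DC, T cell or B cell markers was added after seeing the data. Intervals were tested on simulated Poisson counts, the model they assume. Such counts hold neither the clustering of UMIs in cells nor the spread between mice. Python 3.11.15, scipy 1.17.1 and matplotlib 3.10.9 were used.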

Additional observations from a re-analysis of the deposited data

Results flagged for a closer look

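In types found in both sorts, a log2 ratio of *Tet2* KO over WT sometimes had opposite signs in the Lin-/CD11b+ and the GMP sort, and none of these differences was tested. In monocytic progenitor-like cells *Igtp* was at -0.25 (-1.60 to 1.10) in the Lin-/CD11b+ sort and 0.71 (0.18 to 1.28) in the GMP sort, with 11 UMIs in each genotype of the former. In basophil and mast-like cells the sum of the 8 GTPases was at -0.29 (-0.71 to 0.13) and 0.57 (0.30 to 0.84), the regulator *Irgm1* at -0.018 and 0.79, *Ifi47* at -0.70 and 0.14, and *Gbp7* at -0.87 and 0.21. The Lin-/CD11b+ sort held 66 WT and 110 *Tet2* KO basophil and mast-like cells, and the GMP sort 108 and 148. In the Lin-/CD11b+ sort these cells held the DC marker *Cd74* at 306 CPM in WT and 50.2 CPM in *Tet2* KO. The B cell gene *Cd79a* was at 18.6 and 0.984 CPM there. In the GMP sort *Cd74* was at 0.710 CPM in WT and 4.72 CPM in *Tet2* KO. The part of this make-up in the ratios was not tested.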

How the results depend on the processing

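No paired analysis was possible because each group was 1 library, all with the same replicate number. With no replicates, counting intervals miss the spread between mice, and with 78 WT stem-like cells a ratio such as that of *Iigp1* rests on 1 UMI. The log2 ratio of the summed GTPases lay between 0.73 and 0.98 in stem-like cells and between 0.73 and 0.84 in other early progenitors under the other alternatives in the Lin-/CD11b+ sort, apart from the sum without *Ifi47* in other early progenitors, 0.99. In the GMP sort it was 0.23 in stem-like cells and 0.39 in other early progenitors, with *Ifi47* at -0.57 in the former and *Irgm2* at -0.97 in the latter. The count of members at 1.5-fold or more in stem-like cells, 3, became 4 with the gate at 2 UMIs and without the cells over 5% mitochondrial, the top 5% of UMIs, the 3 cells with most GTPase UMIs or the cells near the limit, 5 with means over cells, 5 with Leiden clusters, 6 without cells above the granule limit and 0 of 4 tested in the GMP sort. In other early progenitors the count of 5 became 3 without the 3 cells with most GTPase UMIs in each library and 2 in the GMP sort, 4 with Leiden clusters, with the gate at 2 UMIs and without cells above the granule limit, and 6 without the top 5% of UMIs or the cells near the limit. Without the filter on UMIs, the median of the members in stem-like cells was 1.10 rather than 0.55. Thinning took the shares of cells with a member from 84.6% to 61.5% (WT) and from 89.6% to 72.9% (*Tet2* KO) in stem-like cells, and from 73.9% to 47.3% and from 81.3% to 58.9% in other early progenitors. Of 206 alternative values for single members, 198 lay within the interval of the value as reported and 8 outside it. The sign changed in 4, the *Ifi47* and *Irgm2* values above and, in stem-like cells, *Irgm1* with the gate at 2 UMIs (-0.25) and *Gbp7* in the GMP sort (-0.24). Many alternatives reused most of the same cells and UMIs, and some intervals were wide, such as 1.90 to 9.78 for *Iigp1* in stem-like cells. Most values could thus hardly fall outside, and the count of 198 is no test of how firm the ratios are.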
